A study of Rattus norvegicus with 24 samples.

Results

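The 10 genes described here encode enzymes that break down tyrosine, tryptophan and histidine in the liver: Tat, Hpd, Hgd and Fah for tyrosine, Tdo2, Kmo and Haao for tryptophan, and Hal, Uroc1 and Ftcd for histidine. They were taken by gene symbol, as probe sets that the platform annotation ties to 1 symbol. Each of the 10 was read by a single probe set, out of 14217 genes measured in this way. The members were chosen with earlier results of these data known. The cells were primary rat hepatocytes, that is liver cells taken from the animal and kept in a dish. Sandwich cultures, in which a second layer of collagen gel was laid over the attached cells, were sampled 1, 2, 3 and 8 days after that layer went on. Monolayer cultures, which stayed on a single layer of gel, were sampled on the same days and served as the negative control. Both cultures received the same medium, with serum, epidermal growth factor, insulin, glucagon and hydrocortisone, changed daily. Each of the 8 groups had 3 Affymetrix arrays, 24 in all. The labels do not say whether replicates came from separate animals or separate dishes, so the p-values measure only the spread between these samples, which may be technical. The rats' strain, sex and age are not given in the sources used here.

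Tyrosine is broken down in hepatocytes in a fixed chain. Tat removes the amino group, Hpd turns the resulting keto acid into homogentisate, Hgd opens the ring of homogentisate, and Fah makes the final cut that yields fumarate and acetoacetate. Inherited loss of Hgd causes alkaptonuria in humans, and loss of Fah causes a hereditary tyrosinaemia. Tryptophan enters the kynurenine pathway through Tdo2, the liver dioxygenase that opens its ring. Kmo hydroxylates kynurenine, and Haao acts further down, making the precursor of quinolinate from which NAD can be built. Histidine loses its amino group to Hal, and Uroc1 then hydrates the product, urocanate. Ftcd, after a further step, moves a formimino group onto tetrahydrofolate, so that histidine feeds the folate pool. Tat and Tdo2 are classic glucocorticoid-inducible liver enzymes in the rat, and hydrocortisone was in the medium of both cultures.

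Promoter windows were read for the members from RefSeq (build GRCr8), covering 250 bases before to 50 after the start that its promoter table uses. A window was found for 9 of the 10, all but Hal. That start is the outer end of the annotated gene for 6 members, and lies inside the gene by 181 bases in Kmo, 103 bases in Fah and 9 bases in Hgd. Short motifs of liver and hormone-responsive factors were searched on both strands, and 4 members held one, so those 4 are printed, 5′ to 3′ on the gene's strand, with the matching letters in capitals. In Ftcd, at chr20:12068170-12068469 on the minus strand, the capitals mark GTTAATAA, a match to the HNF1 motif GTTAATNA. In Tdo2, at chr2:169585537-169585836 on the minus strand, they mark ACAAGCTGT, a match to ACANNNTGT, the palindromic core of the glucocorticoid response element. In Hgd, at chr11:76643718-76644017 on the minus strand, they mark 2 matches to the C/EBP motif TTGCNNAA, read on the opposite strand. In Kmo, at chr13:90089271-90089570 on the plus strand, they mark the HNF4 motif CAAAGTC, also read on the opposite strand.
Ftcd: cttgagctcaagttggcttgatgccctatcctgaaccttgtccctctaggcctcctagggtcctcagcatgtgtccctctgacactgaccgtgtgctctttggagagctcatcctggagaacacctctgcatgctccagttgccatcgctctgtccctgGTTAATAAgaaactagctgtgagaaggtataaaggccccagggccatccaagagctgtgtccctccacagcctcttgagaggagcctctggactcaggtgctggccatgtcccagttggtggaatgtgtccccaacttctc
Tdo2: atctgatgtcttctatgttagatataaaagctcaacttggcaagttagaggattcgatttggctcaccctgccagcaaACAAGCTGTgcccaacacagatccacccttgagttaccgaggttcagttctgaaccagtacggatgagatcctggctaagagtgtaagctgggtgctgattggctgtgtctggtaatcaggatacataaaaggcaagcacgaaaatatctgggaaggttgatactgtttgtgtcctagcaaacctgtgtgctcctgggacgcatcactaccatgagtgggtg
Hgd: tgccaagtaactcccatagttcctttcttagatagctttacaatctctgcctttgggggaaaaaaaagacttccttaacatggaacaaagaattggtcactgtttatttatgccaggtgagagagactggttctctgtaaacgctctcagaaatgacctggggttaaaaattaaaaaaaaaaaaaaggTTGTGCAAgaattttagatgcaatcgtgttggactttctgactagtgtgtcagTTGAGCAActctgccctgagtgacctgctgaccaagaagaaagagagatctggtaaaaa
Kmo: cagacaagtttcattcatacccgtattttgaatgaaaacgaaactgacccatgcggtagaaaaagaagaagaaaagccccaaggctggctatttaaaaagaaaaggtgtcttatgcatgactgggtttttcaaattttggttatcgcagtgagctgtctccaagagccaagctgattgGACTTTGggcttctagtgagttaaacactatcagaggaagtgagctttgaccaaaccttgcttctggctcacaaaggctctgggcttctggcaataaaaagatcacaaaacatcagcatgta
Counted from 1 at the 5′ end of the printed window, the matches begin at base 160 in Ftcd, 79 in Tdo2, 189 and 242 in Hgd, and 179 in Kmo, and no match overlapped another motif. Relative to the start used, the Kmo match begins at -72 and the later Hgd match at -9. Both therefore lie inside the annotated gene, not upstream of it, the Hgd match from the first base of the gene. None of the 9 windows held the FOXA motif TGTTTAC or TGACG, the core of the cyclic AMP response element. Over 27457 rat promoter windows of the same length, the HNF1 motif was found in 2.6%, the HNF4 motif in 4.5%, the core of the glucocorticoid element in 6.6%, the C/EBP motif in 10.5%, FOXA in 3.8% and TGACG in 22.0%. A match is a description of these letters only, not a site shown to be bound.

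All values are log2 probe set levels from 3 arrays a group, and the number of arrays limits their precision. Array medians lay between 5.57 and 5.67, and arrays of a group correlated at 0.993 to 0.997 across probe sets. Members' means over the 24 arrays lay above 66.8% to 99.4% of probe sets. Of 9 hepatocyte markers 7 were measured, and all 7 lay above the median probe set. At day 8, 5 of the 7 were called higher in sandwich and none lower, against 11.9% and 15.6% of all probe sets. They were Cyp2e1 by 2.12 ± 0.18 (SE), Apoa1 by 1.03 ± 0.09, Hnf4a by 0.54 ± 0.10, Ttr by 0.26 ± 0.07 and Serpina1 by 0.24 ± 0.08, while Fgb and Alb were not called. Alb, the plasma protein albumin, lay close to the highest value in the table, 15.07, in both cultures, so its level cannot show a difference. The mean level of these 7 markers lay between 12.84 and 13.00 on the sandwich arrays of day 8 and between 12.13 and 12.43 on the monolayer arrays of day 8. The part of these markers in the members' differences was not tested. The beta-actin control, which compares probes at the 3′ and 5′ ends of the transcript, gave a 3′ minus 5′ difference of 0.99 ± 0.11 on sandwich arrays and 0.82 ± 0.04 on monolayer arrays (SD, n = 12 each, exact permutation test, two-sided, p = 2.81e-05, adjusted p = 5.62e-05 over 2 measures). With that difference as a covariate, all 10 members were still called higher in sandwich at day 8, and the 1 call at day 1 was lost. Since the covariate itself differs between the cultures, that fit cannot separate it from culture. The part of RNA quality in the members' differences was not tested. The GAPDH control gave 0.32 ± 0.10 on sandwich arrays and 0.27 ± 0.07 on monolayer arrays (SD, n = 12 each, exact permutation test, p = 0.192). In a bulk culture sample, fewer hepatocytes and less RNA per hepatocyte cannot be told apart.

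All 10 enzymes were higher in sandwich than in monolayer by day 8, and 9 of them were not yet called different at day 1. A probe set was called at a Benjamini-Hochberg adjusted p under 0.05, two-sided, over 31042 probe sets. At day 1, Tdo2 alone was called higher in sandwich and no member lower, against 0.573% of probe sets called higher and 1.2% called lower. By day 2 the count was 8 higher and 0 lower, against 1.87% and 3.96% of probe sets. On day 3 it was 9 higher and 0 lower, against 7.7% and 8.84%. On day 8 it was 10 higher and 0 lower, against 11.9% and 15.6%. The members' median difference grew over the 4 days, through 0.08, 0.58, 1.23 and 1.76, while the median over all probe sets stayed between 0.01 and 0.02. Over the mean of the 4 days all 10 were higher, by 0.23 to 1.82, against 13.3% of probe sets called higher. Hgd was first called at day 3 and Hpd at day 8, while 7 members were first called at day 2. All 3 sandwich arrays lay above all 3 monolayer arrays for 10 of 10 members at day 3 and at day 8, against 14.5% and 18.3% of probe sets.

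**Figure D1:**
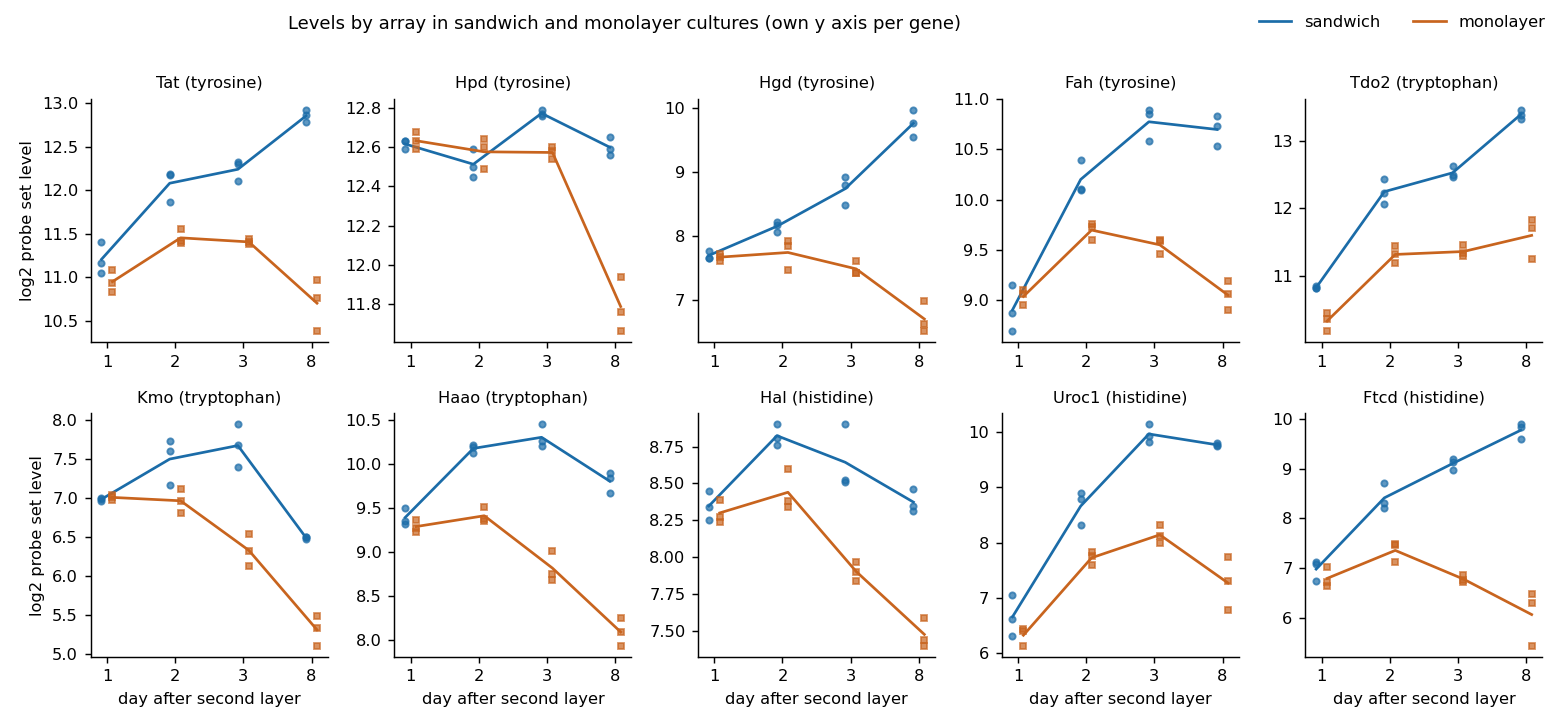
Log2 probe set level (y axis, its own range for each gene) of the 10 enzymes against day after the second layer (x axis, days evenly spaced), for sandwich (blue circles) and monolayer (orange squares). Points are arrays and lines join the means of 3 arrays. At day 8 every sandwich array lies above every monolayer array of the same gene, from Hpd with means of 12.60 against 11.79 to Ftcd with means of 9.77 against 6.06.

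Ftcd, the enzyme that passes the formimino group from histidine to folate, differed most between the cultures. At day 8 it read 9.84, 9.89 and 9.59 on the sandwich arrays, against 6.29, 6.47 and 5.44 on the monolayer arrays. The groups did not overlap, and monolayer replicate 3 was the lowest of its group, under the median probe set, 5.63. The monolayer mean, 6.06, lay above that median, so a fold is given. The difference between the cultures was 3.71 ± 0.19 (SE), or 13.1-fold (adjusted p = 7.11e-14). Only 7 of 31042 probe sets were higher in sandwich by more, a count that leaves out probe sets lower in sandwich. Without monolayer day 8 replicate 3 it was 3.40, or 10.5-fold. At day 1 the arrays overlapped, with 7.12, 6.74 and 7.08 in sandwich and 7.02, 6.64 and 6.72 in monolayer. Ftcd then rose by day 2 in sandwich (1.44 ± 0.19, adjusted p = 8.63e-06) and kept rising to 2.80 above day 1 by day 8. In monolayer its change was 0.56 at day 2, which missed the threshold (adjusted p = 0.0892) but passed it in 4 alternative analyses, among them the replicate block (adjusted p = 0.0278). It was called lower than day 1 at day 8 in monolayer, by -0.73 (adjusted p = 0.00326), and without monolayer day 8 replicate 3 the value was -0.42 (adjusted p = 0.0469). Against monolayer, the difference had been 1.06 at day 2 and 2.32 at day 3.

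Uroc1, the second histidine enzyme, rose in both cultures, to a higher level in sandwich. Its sandwich arrays read 6.61, 6.31 and 7.04 at day 1, 8.78, 8.31 and 8.89 at day 2, 10.14, 9.93 and 9.83 at day 3 and 9.76, 9.81 and 9.74 at day 8. Its monolayer arrays read 6.13, 6.43 and 6.40 at day 1, 7.75, 7.82 and 7.60 at day 2, 7.99, 8.31 and 8.12 at day 3 and 7.30, 7.73 and 6.77 at day 8. Sandwich and monolayer overlapped at day 1 and at no later day. The rise from day 1 to day 3 was 3.32 ± 0.19 (9.95-fold) in sandwich and 1.82 ± 0.19 (3.54-fold) in monolayer, the steepest of any member in each culture. From day 3 to day 8 the change was -0.20 in sandwich (adjusted p = 0.649), whereas in monolayer Uroc1 fell by 0.88 (adjusted p = 0.0017). The cultures differed by 2.50 ± 0.19 at day 8, a 5.67-fold difference (adjusted p = 9.74e-11).

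Hal, the first and committed step of histidine breakdown, showed smaller differences than Uroc1 and Ftcd. Its day 8 arrays read 8.35, 8.46 and 8.31 in sandwich and 7.40, 7.44 and 7.59 in monolayer. At day 1 they read 8.25, 8.34 and 8.45 in sandwich and 8.24, 8.39 and 8.27 in monolayer. In sandwich Hal was higher at day 2 than at day 1 by 0.48 ± 0.10 (adjusted p = 0.00296) and was not called different from day 1 at day 8 (0.03 ± 0.10, adjusted p = 0.903). In monolayer it fell by 0.40 by day 3 (adjusted p = 0.00501) and by 0.82 by day 8 (adjusted p = 3.64e-07). The day 8 difference was 0.90 ± 0.10, or 1.86-fold (adjusted p = 1.11e-07), the smallest of the 3 histidine enzymes. The call at day 2, a difference of 0.39 (adjusted p = 0.0183), was lost in 6 alternative analyses, 4 of which left out 1 array of that day (replicates 1 and 3 of either culture), with adjusted p up to 0.0963. Likewise the rise to day 3 in sandwich, 0.30 (adjusted p = 0.0459), was lost in 17 alternative analyses, and without sandwich day 3 replicate 2 it was 0.17 (adjusted p = 0.311).

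Tat, which takes the amino group off tyrosine, was above day 1 on every later day in sandwich, while in monolayer an early rise was followed by a fall. Its sandwich arrays read 11.05, 11.41 and 11.16 at day 1 and 12.86, 12.92 and 12.78 at day 8. Its monolayer arrays read 11.08, 10.94 and 10.83 at day 1 and 10.97, 10.76 and 10.38 at day 8. The cultures overlapped at day 1 and lay apart at day 8. In sandwich Tat stood above day 1 by 0.87 at day 2, 1.03 at day 3 and 1.64 at day 8 (adjusted p = 1.51e-10 for the last), a 3.12-fold change by day 8. In monolayer Tat rose by 0.50 at day 2 (adjusted p = 0.014) and 0.46 at day 3 (adjusted p = 0.00866), and then fell by 0.70 from day 3 to day 8 (adjusted p = 0.000192). Its monolayer level at day 8 stood -0.25 from day 1 (adjusted p = 0.141), and without monolayer day 8 replicate 1 that difference passed the threshold (adjusted p = 0.0245). That rise at day 2 was lost without monolayer day 1 replicate 2 or 3, or without monolayer day 2 replicate 1 (adjusted p of 0.0521 to 0.0775). At day 8 the difference between sandwich and monolayer was 2.15 ± 0.12, or 4.44-fold (adjusted p = 7.36e-13).

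Hpd, the next tyrosine enzyme, was the last member to be called between the cultures and had the smallest day 8 difference. Its sandwich means lay between 12.52 and 12.77 over the 4 days, and no later day was called different from day 1. In monolayer its means were 12.64, 12.58 and 12.57 at days 1, 2 and 3, and the day 8 arrays read 11.76, 11.94 and 11.66. The day 8 sandwich arrays read 12.59, 12.65 and 12.56, apart from these. The fall in monolayer from day 3 to day 8 was -0.78 ± 0.08 (adjusted p = 4.95e-08), and the culture difference at day 8 was 0.81 ± 0.08, or 1.76-fold (adjusted p = 6.50e-09). At day 3 the difference of 0.20 missed the threshold (adjusted p = 0.0802), and it passed in 3 alternative analyses.

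Hgd, which opens the ring of homogentisate, changed in opposite directions in the 2 cultures. At day 8 its arrays read 9.77, 9.97 and 9.55 in sandwich and 6.51, 6.98 and 6.62 in monolayer. At day 1 they read 7.66, 7.77 and 7.66 in sandwich and 7.72, 7.61 and 7.68 in monolayer, which overlap. Hgd rose in sandwich by 1.04 ± 0.13 at day 3 and 2.07 ± 0.13 at day 8 (4.18-fold, adjusted p = 7.90e-12), and fell in monolayer by 0.97 ± 0.13 by day 8 (adjusted p = 1.84e-06). The day 8 difference of 3.06 ± 0.13 was 8.34-fold (adjusted p = 4.44e-15), the second largest of the 10. At day 2 the difference was 0.41 (adjusted p = 0.0704), and 8 alternative analyses put it past the threshold. The rise to day 2 in sandwich, 0.46 (adjusted p = 0.0371), was lost when any 1 of the 6 sandwich arrays of those days was left out, with adjusted p between 0.0581 and 0.143.

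Fah, the final enzyme of the tyrosine chain, rose early in both cultures and then held in sandwich and receded in monolayer. Its sandwich arrays read 8.69, 8.87 and 9.15 at day 1, 10.11, 10.10 and 10.39 at day 2, 10.58, 10.85 and 10.89 at day 3 and 10.53, 10.83 and 10.73 at day 8. Its monolayer arrays read 8.95, 9.06 and 9.10 at day 1, 9.60, 9.76 and 9.73 at day 2, 9.46, 9.59 and 9.60 at day 3 and 8.90, 9.19 and 9.06 at day 8. The cultures overlapped at day 1 only. The rise to day 3 was 1.87 ± 0.12 in sandwich (3.65-fold) and 0.52 ± 0.12 in monolayer (1.43-fold, adjusted p = 0.00198). By day 8 monolayer stood at 0.01 from day 1 (adjusted p = 0.95), and sandwich at 1.79 (adjusted p = 1.20e-11). The cultures differed by 1.65 ± 0.12 at day 8, or 3.13-fold (adjusted p = 4.13e-11). At day 2 they differed by 0.50 (adjusted p = 0.0078), a call lost without monolayer day 2 replicate 1 or sandwich day 2 replicate 3 (adjusted p of 0.0508 and 0.0717).

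Tdo2, the entry enzyme of the tryptophan route, was the one member called at day 1 and the one not called lower in monolayer between days 3 and 8. Its day 1 arrays read 10.81, 10.84 and 10.81 in sandwich and 10.45, 10.35 and 10.17 in monolayer. At day 8 they read 13.39, 13.46 and 13.33 in sandwich and 11.71, 11.83 and 11.25 in monolayer. The groups did not overlap on either day. The day 1 difference of 0.50 ± 0.12 (adjusted p = 0.0281) was lost in 7 alternative analyses, among them median centring, the beta-actin covariate and leaving out any 1 of the 3 sandwich arrays or monolayer replicate 2 or 3 of day 1 (adjusted p of 0.057 to 0.167). From day 1 to day 8 Tdo2 rose by 2.58 ± 0.12 in sandwich (5.96-fold, adjusted p = 2.29e-14) and by 1.27 ± 0.12 in monolayer (2.41-fold, adjusted p = 5.16e-09). The day 8 difference was 1.80 ± 0.12, or 3.48-fold (adjusted p = 1.19e-11). In monolayer the change from day 3 to day 8 was 0.24 (adjusted p = 0.251), and without monolayer day 8 replicate 3 it passed the threshold (adjusted p = 0.0143).

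Kmo and Haao, which lie further along the tryptophan route, were highest in sandwich at days 2 and 3 and fell in both cultures from day 3 to day 8. Kmo arrays read 7.39, 7.94 and 7.68 in sandwich and 6.13, 6.54 and 6.32 in monolayer at day 3. At day 8 Kmo read 6.47, 6.50 and 6.50 in sandwich and 5.34, 5.49 and 5.11 in monolayer. These pairs of groups did not overlap, and the monolayer mean of 5.31 lay under the median of all probe sets, 5.63, so no fold is given there. The Kmo difference was 1.34 ± 0.14 at day 3 (2.53-fold, adjusted p = 6.30e-08) and 1.17 ± 0.14 at day 8 (adjusted p = 2.47e-07). In sandwich Kmo at day 8 was below its own day 1 level, by -0.49 ± 0.14 (adjusted p = 0.00854), the one member lower than at day 1 in that culture. Kmo's rise to day 2 in sandwich, 0.51 (adjusted p = 0.0227), was lost without any 1 of 5 of the 6 sandwich arrays of those days (adjusted p of 0.0567 to 0.176). Kmo's call between cultures at day 2, 0.53 (adjusted p = 0.0184), was lost in 5 alternative analyses, 4 of them leaving out 1 array of day 2 (monolayer replicates 1 and 3, sandwich replicates 2 and 3), with adjusted p of 0.0582 to 0.139.

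Haao read 10.20, 10.45 and 10.26 in sandwich and 8.75, 9.01 and 8.68 in monolayer at day 3. At day 8 Haao read 9.67, 9.84 and 9.90 in sandwich and 8.24, 8.09 and 7.93 in monolayer. Every sandwich array was above every monolayer array on both days. The Haao difference was 1.49 ± 0.10 at day 3 (2.81-fold) and 1.71 ± 0.10 at day 8 (3.28-fold, adjusted p = 1.06e-12). In sandwich Haao fell by 0.50 from day 3 to day 8 (adjusted p = 0.00104) but was still 0.41 ± 0.10 above day 1 (adjusted p = 0.00291). In monolayer Haao fell by 0.48 by day 3 and fell by 1.20 ± 0.10 by day 8 (adjusted p = 6.44e-10).

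**Figure D2:**
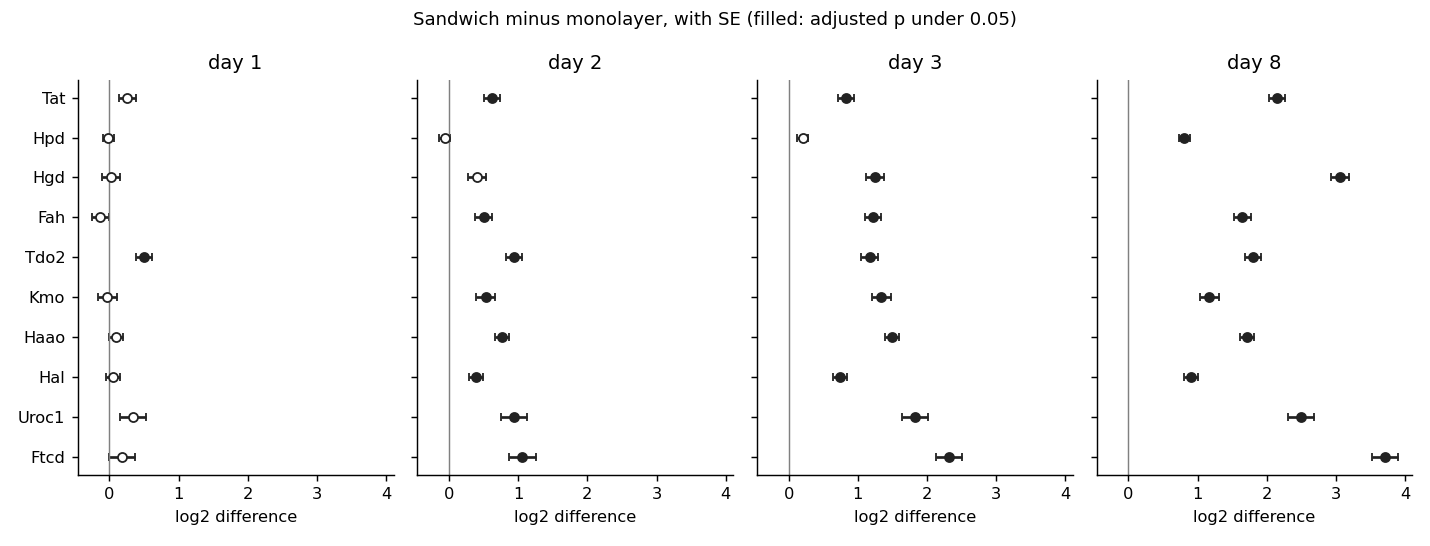
Sandwich minus monolayer difference in log2 level (x axis) for the 10 enzymes (rows) in 4 panels, days 1, 2, 3 and 8. Bars are the SE of the limma fit, and filled circles have an adjusted p under 0.05. The filled circles number 1, 8, 9 and 10 from day 1 to day 8, and the day 8 values run from 0.81 for Hpd to 3.71 for Ftcd.

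Within sandwich, 9 of the 10 genes were called higher at day 2 than at day 1, against 2.78% of probe sets called higher, and 9 at day 3, against 7.4%. The exception was Hpd at each time. By day 8, 7 were higher than at day 1 and 1, Kmo, was lower, against 11.6% of probe sets called higher and 13.2% lower, with Hpd and Hal not called. From day 3 to day 8, Tat, Hgd, Tdo2 and Ftcd rose further and Kmo and Haao fell, against 5.58% of probe sets called higher and 5.6% lower. The Ftcd rise over that step, 0.67 (adjusted p = 0.0176), was lost without sandwich day 3 replicate 3 or without sandwich day 8 replicate 1 or 2, with adjusted p up to 0.0716.

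In monolayer, Tat, Fah, Tdo2 and Uroc1 rose by day 2, against 2.43% of probe sets called higher. At day 3 the same 4 were above day 1 and Kmo, Haao and Hal were below it, against 8.82% of probe sets called higher and 11% lower. At day 8 only Tdo2 and Uroc1 were called above day 1, and 6 members were below it, namely Hpd, Hgd, Kmo, Haao, Hal and Ftcd, against 15% and 15.8% of probe sets. The step from day 3 to day 8 in monolayer lowered 9 of the 10, Tdo2 being the exception, against 5.59% of probe sets called lower. The median change of the 10 over that step was -0.72, beside -0.01 over all probe sets. The Ftcd fall over that step, -0.72 (adjusted p = 0.00975), was -0.40 and lost its call without monolayer day 8 replicate 3 (adjusted p = 0.115). That array was the lowest of its group for 7 of the 10 members. Without it, the day 8 culture differences were all called and ran from 0.75 for Hpd to 3.40 for Ftcd.

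**Figure D3:**
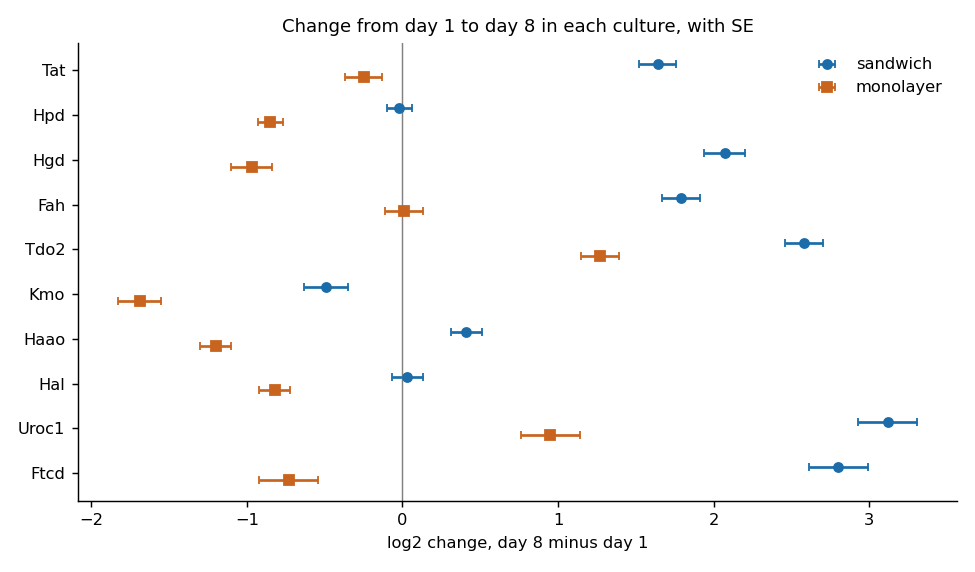
Change in log2 level from day 1 to day 8 (x axis) for the 10 enzymes (rows), in sandwich (blue circles, upper of each pair) and in monolayer (orange squares), with the SE of the limma fit. Every sandwich change lies to the right of the monolayer change of the same gene, by 0.83 for Hpd up to 3.53 for Ftcd.

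The change with time was tested for a difference between the cultures. All 10 members had a culture by day interaction (moderated F test), as did 14.9% of probe sets. By day 2 the change was larger in sandwich for Haao alone, by 0.66 ± 0.14 (adjusted p = 0.0246), against 0.177% of probe sets called that way. That call was lost without any 1 of 8 of the 12 arrays of days 1 and 2, with adjusted p between 0.0517 and 0.088. With the replicate block Fah was called as well, at 0.63 (adjusted p = 0.00834). By day 3 it was larger for 9 members, all but Hpd, against 4.17% of probe sets, with the Tat value of 0.57 (adjusted p = 0.0436) lost in 12 alternative analyses (adjusted p of 0.0508 to 0.13). By day 8 it was larger for all 10, against 7.8% of probe sets. The growing distance had different makeups. For Tat, 86.9% of the 1.89 by which the changes differed at day 8 was the rise in sandwich. That share was 79.3% for Ftcd and 68.0% for Hgd. It was 25.5% for Haao and 3.1% for Hal, whose monolayer falls made up the rest. For Fah the sandwich rise was nearly all of it, with monolayer back at its day 1 level. For Hpd it was the monolayer fall, -0.85 beside -0.02 in sandwich. Tdo2 and Uroc1 rose in both cultures, and Kmo fell in both.

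The order of the 8 group means also differed between members. For Ftcd the 3 later sandwich groups ranked highest, in the order day 8, day 3 and day 2, each apart from the next, and monolayer day 8 ranked lowest. Hgd had the same 3 groups on top in the same order, each apart from the next, and its sandwich day 1 overlapped both neighbours, monolayer days 2 and 1. Tdo2 had sandwich days 8, 3 and 2 on top and monolayer day 1 at the bottom, so that its monolayer day 8 mean (11.59) stood above its sandwich day 1 mean (10.82). For Tat, sandwich days 3 and 2 overlapped each other. For Fah the top pair, sandwich days 3 and 8, overlapped, and the lowest group was sandwich day 1, which overlapped monolayer day 1. For Uroc1 the top group was sandwich day 3, apart from sandwich day 8, and monolayer day 1 was lowest. Kmo and Haao had overlapping sandwich days 3 and 2 on top. For Hal the upper 6 groups ran from 8.82 to 8.30 with each neighbour overlapping, and monolayer days 3 and 8 lay apart below them. Hpd had 6 groups between 12.64 and 12.52 with every neighbour overlapping, sandwich day 3 above them and monolayer day 8 below.

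Profiles over the 8 group means were compared by Pearson's r, as a description with no test. The 45 pairs of members had r between 0.07 and 0.98, with a median of 0.76. Pairs from 1 route had a median of 0.65 (12 pairs) and pairs from different routes 0.76 (33 pairs). The closest were Tat with Ftcd (0.98), Fah with Uroc1 (0.97), and Haao with Hal and Hgd with Ftcd (0.96 each), all drawn from different routes. The least alike were Tdo2 with Kmo and Tdo2 with Hpd (0.07 each), the first pair from the same route. All pairs share the same arrays and the same 2 cultures.

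**Figure D4:**
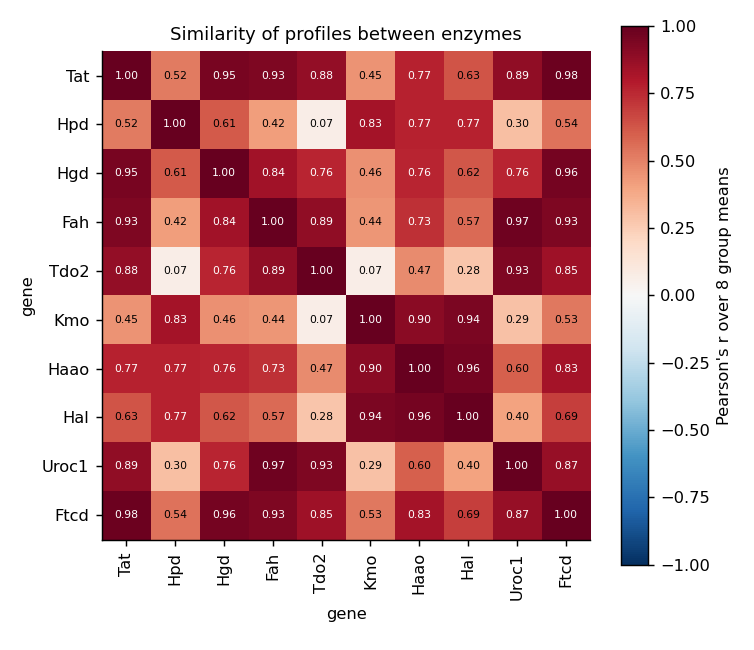
Pearson's r between each pair of the 10 enzymes over the 8 group means (rows and columns are genes, colour from -1 to 1). Values run from 0.07 to 0.98. Kmo, Haao and Hal have r of 0.90 to 0.96 with each other, and Tdo2 has 0.07 with both Hpd and Kmo.

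Among 9632 other genes, those with the profile most like each member over the 8 group means were named by the 3 highest r. For Ftcd they were Apoc2, an apolipoprotein (0.995), Akr1b7 (0.988) and Bbox1, the last enzyme of carnitine synthesis (0.986). For Hgd they were Rab9a (0.996), Hsd17b10 (0.995) and Gys2, the liver glycogen synthase (0.990). For Tat they were Tmem14c (0.994), Acad10 (0.990) and Rgs5 (0.988). For Uroc1 they were Preb (0.993), Wnt4 (0.991) and Hsd11b1, which regenerates active glucocorticoid in liver (0.989). Preb was also among the 3 nearest to Fah (0.986), after Tpmt (0.994) and Mtss1 (0.993). For Haao they were Erg28 (0.993), Pcyt2 (0.992) and Xkr8 (0.989). For Hal they were Slc25a5 (0.992), Alad, an enzyme of haem synthesis (0.989), and A1cf (0.987). For Kmo they were Gstt1 (0.993), Hyi (0.989) and Yars1 (0.988). The lists for Tdo2 (Slco1a4, Kcna1 and Ufc1) and Hpd (Slc35c2, Pi4ka and Scn11a) had r from 0.969 to 0.991. Pearson's r takes no account of the size of a difference. At day 8 the sandwich and monolayer means were 7.57 and 7.0 for Slco1a4, 5.98 and 5.83 for Kcna1 and 9.76 and 9.64 for Ufc1, beside 13.39 and 11.59 for Tdo2. Those of Scn11a were 5.89 and 5.61, close to the median probe set, 5.63.

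Neighbouring enzymes of the tyrosine route were measured for 4 of 7 listed genes, and 2 were called higher in sandwich at day 8, none lower. Over all probe sets 11.9% were called higher and 15.6% lower on that day. Got1, the cytosolic aspartate aminotransferase, averaged 12.21 in sandwich and 9.09 in monolayer, a difference of 3.11 ± 0.10 (adjusted p = 4.64e-17). Gstz1, the isomerase between Hgd and Fah, averaged 9.78 in sandwich and 8.33 in monolayer, a difference of 1.45 ± 0.11 (adjusted p = 2.92e-10). Both rose from day 1 to day 8 in sandwich, by 2.99 and 1.33, and were not called in monolayer. Qdpr, which recycles tetrahydrobiopterin, differed by 0.18 (adjusted p = 0.0758) and Hpdl by -0.17 (adjusted p = 0.315). Among 3 genes that make tetrahydrobiopterin or regulate its supply, Gch1, the first enzyme, differed by 1.74 ± 0.09 and Gchfr, the feedback regulator of Gch1, by 0.68 ± 0.09, both higher. Pts differed by 0.29 (adjusted p = 0.119). Gch1 fell in both cultures from day 1 to day 8, by 0.74 in sandwich and by 2.33 in monolayer.

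On the tryptophan route, 9 of 12 measured genes were higher in sandwich at day 8 and none lower, against 11.9% and 15.6% of probe sets. Their median difference was 0.47, beside 0.02 over all probe sets. Aadat, an aminotransferase that uses kynurenine, differed by 1.99 ± 0.11, Kyat3 by 1.02 ± 0.10 and Afmid, the formamidase that follows Tdo2, by 1.28 ± 0.13. Acmsd, which diverts the pathway from quinolinate, differed by 1.05 ± 0.12 and Kynu, the kynureninase between Kmo and Haao, by 0.94 ± 0.11. Afmid fell in monolayer by 1.40 from day 1 to day 8, whereas its change in sandwich, -0.29, was not called. Kynu rose in sandwich by 1.38 and was not called in monolayer (0.22). Qprt and Ddc were not called between the cultures at day 8, at 0.24 and 0.20, nor was Ido1, whose means lay under the median probe set in both. At day 1 Acmsd was lower in sandwich, at -0.50, the one call in this list on that day, against 1.2% of probe sets called lower. For the histidine route 3 listed genes were measured, and Hdc, which makes histamine from histidine, was higher by 0.39 ± 0.13 (adjusted p = 0.0331), with a monolayer mean of 5.62, just under the median probe set. Hars1 was at -0.18 and Hnmt lay under the median probe set in both cultures.

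Genes of the folate pool that Ftcd feeds were higher for 4 of 7 at day 8, and none was lower, against 11.9% and 15.6% of probe sets. These were Fpgs at 0.87, Aldh1l1 at 0.83, Mthfd1 at 0.66 and Shmt1 at 0.48. In monolayer 5 of the 7 fell from day 1 to day 8, with a median of -0.63, against 15.8% of probe sets called lower. In sandwich 1 rose and 1 fell, against 11.6% and 13.2% of probe sets. Among 8 amino acid carriers 5 were higher in sandwich at day 8 and 1 lower, against 11.9% and 15.6% of probe sets. Slc38a3, a glutamine and histidine carrier, was higher by 1.45 ± 0.16, Slc38a4 by 0.87 ± 0.10 and Slc16a10, an aromatic amino acid carrier, by 0.81 ± 0.13, with a monolayer mean of 4.96, under the median probe set. Slc3a2, the shared heavy chain of several amino acid exchangers, was lower, at -0.79 ± 0.10 (adjusted p = 1.28e-06).

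**Figure D5:**
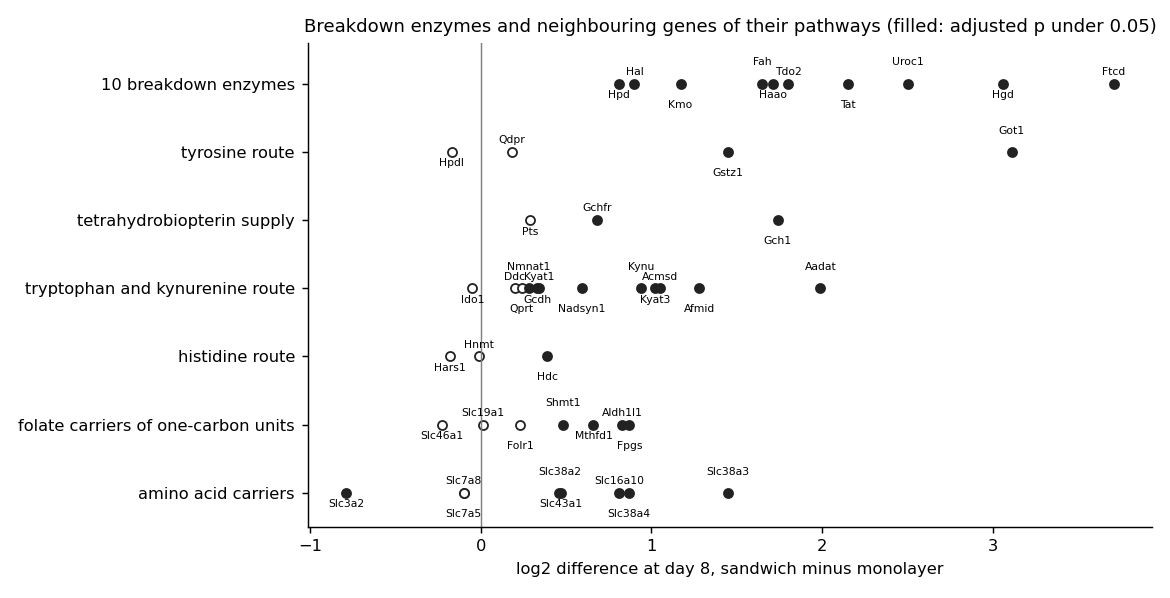
Sandwich minus monolayer difference in log2 level at day 8 (x axis) for the 10 enzymes and for listed genes of neighbouring steps (rows are lists). Each circle is a gene, and filled circles have an adjusted p under 0.05. All 10 enzymes are filled and to the right of 0, from 0.81 to 3.71. The neighbouring lists hold both filled and open circles, with Got1 at 3.11 and Slc3a2 at -0.79 as their ends.

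Genes that respond to glucocorticoids were read because Tat and Tdo2 do. Of 15 measured, 7 were higher in sandwich at day 8 and 3 lower, against 11.9% and 15.6% of probe sets, with a median difference of 0.39. The lower count lies near its share of probe sets. Pck1, the gluconeogenic enzyme, was higher by 2.22 ± 0.16, Cps1, the first urea cycle enzyme, by 2.06 ± 0.13 and Fkbp5, a receptor cochaperone, by 1.52 ± 0.12. Tsc22d3, the glucocorticoid-induced leucine zipper, was lower, at -1.72 ± 0.10, as was Sgk1, a kinase, at -1.44 ± 0.12. Nr3c1, the glucocorticoid receptor, differed by 0.13 (adjusted p = 0.626). Of 18 liver transcription factors 13 were higher and 2 lower, against the same shares of probe sets. At day 8 Dbp was higher by 1.39 ± 0.11, Creb3l3 by 1.05 ± 0.09 and Nr1i3, a xenobiotic receptor, by 1.79 ± 0.19. The monolayer mean of Nr1i3 was 4.93, under the median probe set. Hnf4a was already higher at day 1, by 0.46, and was higher by 0.64 at day 2, 0.99 at day 3 and 0.54 ± 0.10 at day 8. Foxa2 and Onecut1 were lower, at -0.58 and -0.59.

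Genes of other hepatic amino acid routes were also read at day 8, when 11.9% of all probe sets were called higher. Of 13 urea cycle and transaminase genes, 12 were higher in sandwich, with a median of 2.02. Got1 and Cps1, already counted in lists above, are among them. Got2, the mitochondrial aspartate aminotransferase, was not called (-0.03, adjusted p = 0.853). Of 12 genes of methionine, methylation and taurine metabolism 9 were higher, with a median of 1.86, and Gatm, Mtr and Csad were not called (0.14, 0.13 and -0.08). The median of the 10 breakdown enzymes was 1.76. No test was made of a difference between these lists.

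Markers of other cell types were read beside these results. Of 6 measured cholangiocyte (bile duct cell) markers 3 were lower in sandwich at day 8, against 15.6% of probe sets. Krt19 averaged 4.78 in sandwich and 7.97 in monolayer, Krt7 averaged 4.01 in sandwich and 7.23 in monolayer, and Cd24 averaged 5.51 in sandwich and 10.19 in monolayer. These sandwich means lay under the median probe set, 5.63, where signal over background is not known, so the size of the differences is not given. The mean level of the 6 lay between 5.52 and 5.81 on sandwich arrays of day 8 and between 7.47 and 7.56 on monolayer arrays of day 8. Epcam, Spp1 and Cftr were not called. Of 10 macrophage markers 8 were higher in sandwich at day 3, against 7.7% of probe sets. At day 8 the count was 1 higher and 2 lower, against 11.9% and 15.6% of probe sets. Their mean levels at day 8 were 6.32 to 6.58 in sandwich and 6.47 to 6.64 in monolayer. Of 10 stellate cell and fibroblast markers 1 was higher and 2 lower at day 8, near the same 11.9% and 15.6%. None of the 6 endothelial and none of the 4 lymphocyte markers had a mean above the median probe set. The part of other cell types in the members' differences was not tested.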

How the data were processed

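RNA from rat hepatocytes in 2 culture types at 4 days was read on 24 Affymetrix arrays. The authors deposited log2 probe set values, normalized between arrays; RMA and limma are named, with no role or version, per the submitters' processing notes. The deposited log2 values were used as they stood. Of 31099 probe sets, 57 controls were left out and 31042 tested. A symbol was taken from the platform annotation where it gave exactly 1 (20826 probe sets, 436 had several and 9780 none) and updated by gene identifier; a gene was read by its brightest probe set over 24 arrays.

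The tests used limma 3.58.1 (R 4.3.3), with 1 mean per group over all 24 arrays and Benjamini-Hochberg adjustment over 31042 probe sets per comparison. Folds are 2 to the power of the log2 difference, and none is given where the lower mean is below the median probe set, 5.63. The code was tested on simulated data with known changes. The 10 members, lists and motifs were chosen with earlier results of these data known. All 10 members are named; other genes come from fixed lists and, for likeness, the 3 highest correlations. The labels do not say that a replicate number marks a shared animal or day. Deviations of same-numbered arrays from their group means correlated above 0.1 in all 3 pairs for 4 of 12 pairs of groups: sandwich and monolayer at day 8, sandwich days 1 and 2, sandwich days 3 and 8, and monolayer days 1 and 2 (0.124 to 0.534). For the cultures at days 1, 2 and 3 they ran from -0.433 to 0.408. Alternatives were other normalizations, covariates, weights, filters and priors, a replicate block, single days and leaving out each array. Amdhd1 and other listed genes without a single-symbol probe set were not analysed here.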

Additional observations from a re-analysis of the deposited data

Results flagged for a closer look

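The change from day 1 differed between sandwich and monolayer, by an interaction contrast of the limma fit, for 20 combinations of member and day, each given as sandwich change minus monolayer change on the log2 scale. By day 2 the difference was 0.66 for Haao. By day 3 it was 0.57 for Tat, 1.23 for Hgd and 1.35 for Fah on the tyrosine route. On the tryptophan route it was 0.68 for Tdo2, 1.36 for Kmo and 1.39 for Haao. On the histidine route it was 0.69 for Hal, 1.49 for Uroc1 and 2.14 for Ftcd. By day 8 it was 1.89 for Tat, 0.83 for Hpd, 3.04 for Hgd and 1.78 for Fah. For the tryptophan enzymes it was 1.30 for Tdo2, 1.20 for Kmo and 1.61 for Haao. For the histidine enzymes it was 0.85 for Hal, 2.17 for Uroc1 and 3.53 for Ftcd. All 10 were past the threshold by day 8. Groups of 3 arrays are too small to test single arrays as outliers.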

How the results depend on the processing

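At day 8 all 10 members stayed called higher in sandwich under every alternative run, including each of 24 arrays left out. Of 1320 member values under the other alternatives 1288 kept their direction and side of the threshold, 9 lost a call, 14 gained one and 9 changed sign. The day 1 count was 0 in place of 1 with arrays centred on their medians and with the beta-actin covariate, and 0 to 1 leaving out an array. The count for the difference in change to day 2 was 2 in place of 1 with array weights, with an intensity trend and robust prior, and with a replicate block, and 0 to 2 leaving out an array. The day 2 count was 5 to 9 leaving out an array. Sign changes touched uncalled values near 0. With quantile normalization they were Kmo at day 1 (0.025) and Hpd from day 1 to 8 in sandwich (0.0285). With median centring they were Hgd at day 1 (-0.00383) and Fah from day 1 to 8 in monolayer (-0.0523). With the interquartile range as a covariate they were Hpd at day 1 (0.0172) and Ftcd from day 1 to 3 in monolayer (0.114). With the beta-actin covariate they were Kmo at day 1 (0.0122) and Ftcd from day 1 to 3 in monolayer (0.0148), which was 0.0303 with array weights. Leaving out an array, the sandwich minus monolayer difference at day 1 ran from -0.038 to 0.00635 for Hpd, -0.0116 to 0.0491 for Hgd and -0.00281 to 0.0957 for Hal. In monolayer the change ran from -0.0888 to 0.097 for Ftcd (day 3), -0.0549 to 0.0897 for Fah (day 8), -0.017 to 0.208 for Hgd (day 2) and -0.121 to 0.0346 for Kmo (day 2), each against day 1. In sandwich it ran from -0.0202 to 0.0783 for Hal and -0.0396 to 0.0036 for Hpd (day 8 against day 1), and -0.171 to 0.00725 for Fah (day 8 against day 3). The cause was not tested.

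With array weights 933 probe sets were called at day 1 in place of 552 and 3688 at day 2 in place of 1809. For day 2 against day 1 they gave 2722 in place of 1802 in sandwich and 3578 in place of 1556 in monolayer. For the difference in change to day 2 the count was 168, against 491 with array weights, 306 with the interquartile range covariate and 261 with the replicate block. With the replicate block the members called between the cultures were 1, 9, 9 and 10 at days 1, 2, 3 and 8. Between the cultures 5 of 12 same-numbered pairs correlated better than the arrays' other pairings, among them all 3 of day 8. In the 4 comparisons whose same-numbered arrays all correlated above 0.1, the block added the Ftcd rise to day 2 in monolayer (adjusted p = 0.0278) and changed no other member's call. Elsewhere it added Hgd at day 2 (adjusted p = 0.0275) and Fah in the difference in change to day 2 (adjusted p = 0.00834). Choosing another probe set was not run, since each member has 1. The 3 arrays a group limit the precision, and signal over background is not in the table.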
